A study of Mus musculus with 20 samples.

Results

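A set of 10 immediate early genes, which neuronal activity can induce, was followed in the cochlea of mice that lack the long form of BAI1, an adhesion receptor: *Fos*, *Fosb*, *Junb*, *Egr1*, *Egr3*, *Egr4*, *Npas4*, *Nr4a1*, *Nr4a3* and *Arc*. They were taken by name from a list, not by a measured value, but with earlier results of these data known. They are 10 of the 24411 genes in the deposited tables. All 10 have a row in the tables, and 8 of them passed the filter on low counts at each age, *Egr4* and *Npas4* being the exceptions.

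RNA was sequenced from the apical coil of the cochlea, the turn that encodes low frequencies, dissected as sensory epithelium together with spiral ganglion neurons. The control was the heterozygous *Bai1tm2b/+* mouse (Het) and the mutant the homozygous *Bai1tm2b/tm2b* littermate (Homo), so both groups carry the tm2b allele of *Adgrb1*, the gene for BAI1, in which exons 3 and 4 are replaced by a lacZ cassette. Mice of both sexes on a C57BL/6N background entered the study, and each library came from the pooled tissue of 4 mice, so that p-values here measure the spread between pools. There were 3 pools of each genotype at postnatal day (P) 22, when mice hear, and 7 of each at P7, before hearing starts. In the P7 set, pools 5 to 7 of each genotype were deposited as estimated counts, like the P22 pools, and pools 1 to 4 as whole numbers that behave as rounded TPM (read counts divided by gene length and brought to 1 common total). The 12 libraries in counts held between 31108542 and 58807162 counts in all. The depth of the 8 libraries in rounded TPM is unknown.

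Immediate early genes are transcribed within minutes of a stimulus, without new protein synthesis, when calcium entry or growth factor signaling activates kinases that act on the factors CREB, SRF and MEF2 at their promoters. Most encode transcription factors that set the later response of the cell, while *Arc* encodes a postsynaptic protein that promotes the removal of AMPA glutamate receptors from the synapse. Because their messages are short-lived and also answer to stress and injury, their level in dissected tissue can carry the handling of the tissue as well as its activity.

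CREB binds the cAMP response element, whose shortest form is TGACG, or CGTCA when read from the other strand. RefSeq promoters (a window around the start of each gene, most of it upstream, GRCm38.p6) were matched for 7 of the 10 genes (*Arc*, *Egr1* and *Egr3* had no match), and all 7 of these held TGACG on either strand, against 20.8% of the 32851 promoters in the table. The full palindrome TGACGTCA was in 0 of the 7 and in 1.79% of all promoters. The CArG box that SRF binds, searched in its strict form only, was in 0 of the 7 and in 1.63% of all. These letters say nothing of whether a factor was bound. Sites outside these short windows were not searched, so a count of 0 does not mean that a gene lacks the site. The promoters of *Nr4a3* and *Nr4a1* are shown because these related genes differed in how their levels changed with age, that of *Fos* because it is the best known of the set, and that of *Npas4* because its genotype values were opposite at the 2 ages. Capitals mark TGACG or CGTCA. *Nr4a3* lies on the plus strand (chr4:48045055-48045354), *Nr4a1* on the plus strand (chr15:101266596-101266895), *Fos* on the plus strand (chr12:85473640-85473939) and *Npas4* on the minus strand (chr19:4989922-4990221).
Nr4a3: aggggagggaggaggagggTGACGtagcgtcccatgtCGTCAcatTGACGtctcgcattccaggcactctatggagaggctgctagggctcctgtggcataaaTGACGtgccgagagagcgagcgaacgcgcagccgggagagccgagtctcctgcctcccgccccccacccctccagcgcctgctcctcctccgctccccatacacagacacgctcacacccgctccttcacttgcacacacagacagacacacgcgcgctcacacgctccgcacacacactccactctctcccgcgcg
Nr4a1: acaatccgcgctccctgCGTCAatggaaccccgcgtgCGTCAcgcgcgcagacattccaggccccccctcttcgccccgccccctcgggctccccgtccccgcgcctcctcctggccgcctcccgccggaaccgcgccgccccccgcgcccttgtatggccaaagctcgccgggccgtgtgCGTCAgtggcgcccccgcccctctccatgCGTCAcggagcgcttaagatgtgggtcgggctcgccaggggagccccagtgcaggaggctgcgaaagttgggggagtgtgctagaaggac
Fos: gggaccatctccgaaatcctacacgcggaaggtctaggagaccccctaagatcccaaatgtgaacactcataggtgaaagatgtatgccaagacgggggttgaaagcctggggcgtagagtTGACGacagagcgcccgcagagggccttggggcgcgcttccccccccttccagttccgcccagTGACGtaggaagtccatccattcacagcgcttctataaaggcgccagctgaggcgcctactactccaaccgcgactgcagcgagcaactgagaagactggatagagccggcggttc
Npas4: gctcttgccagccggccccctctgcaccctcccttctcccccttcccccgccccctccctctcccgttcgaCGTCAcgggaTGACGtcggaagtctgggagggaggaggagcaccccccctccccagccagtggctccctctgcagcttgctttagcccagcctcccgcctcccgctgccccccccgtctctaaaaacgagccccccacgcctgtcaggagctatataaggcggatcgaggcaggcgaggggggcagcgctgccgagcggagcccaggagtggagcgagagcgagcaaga
*Nr4a3* and *Nr4a1* each held 4 copies of the short element within these windows. *Fos* and *Npas4* each held 2 copies, and those of *Npas4* were on opposite strands.

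*Adgrb1* itself was looked at first, as a check of the labels. At P22 it stood at 139, 137 and 151 CPM (counts brought to a common total after TMM scaling) in the Het pools and at 93.2, 90.6 and 95.8 CPM in the Homo pools, a log2 fold change of -0.61 (SE 0.0585, edgeR adjusted p = 0.000602, Benjamini-Hochberg over all genes). In the P7 counts its range was 35.5 to 61.6 CPM in Het and 23.7 to 34.3 CPM in Homo pools. These did not overlap, as was so for 10.6% of all genes tested there. The log2 fold change was -0.64 (SE 0.227, edgeR adjusted p = 0.894). In rounded TPM it was 7 to 12 in Het and 9 to 12 in Homo pools, which overlapped, so this whole-gene value does not tell the genotypes apart there. The value sums the long and the short transcripts, and the deletion touches only the long ones.

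At P22, *Arc* was the 1 gene of the set called lower in mutant mice. *Arc* (ENSMUSG00000022602, minus strand, chr15:74669083-74672570, mm10) stood at 8.01, 8.48 and 9.17 CPM in the Het pools and at 5.0, 7.08 and 5.41 CPM in the Homo pools. Every Homo pool was below every Het pool, and the second Homo pool was the closest. The means were 8.56 ± 0.585 and 5.83 ± 1.1 CPM (SD, n = 3 pools). The log2 fold change was -0.55 (SE 0.15), with an adjusted p of 0.0386 in edgeR's quasi-likelihood test over 15443 genes. A call required an adjusted p under 0.05, a log2 fold change beyond 0.5 and an SE under 0.5. Of the 8 members tested, 1 was called lower, against 1.41% of all genes tested. Without any 1 pool the log2 fold change lay between -0.71 and -0.45, and the call was kept without the second Homo pool (edgeR adjusted p = 0.0237) but lost when any of the other 5 was left out, where the edgeR adjusted p was 0.0542 to 0.124.

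Neuron markers were also lower as a sum in the Homo pools at P22. Their summed level (14 genes, among them the neurofilament genes and *Tubb3*, none at 0) was 15000 to 17200 CPM in Het and 11400 to 12900 CPM in Homo pools. Of the 14, 2 were called lower, *Nefh* (log2 fold change -0.52) and *Syt2* (-0.53), against 1.41% of all genes tested. When libraries were scaled to these markers in place of all genes, the log2 fold change of *Arc* was -0.28 (edgeR adjusted p = 0.209) and the median gene stood at 0.267. Such a scaling shifts every gene by the same factors within a library. In a bulk sample, fewer neurons and less RNA in each neuron cannot be told apart. *Arc* also lies close to the deleted gene, 79.6 kb from *Adgrb1* on the same chromosome, with 0 tested genes between them. Of 62 other genes tested within 2 Mb of *Adgrb1*, 2 were called lower, *Arc* and *Mafa* (-1.52), against 1.41% of all genes tested. None (0) was called higher, and the median log2 fold change was 0.022. Within 158.4 kb, *Them6* (-0.32, edgeR adjusted p = 0.0168) and *Lynx1* (-0.4, edgeR adjusted p = 0.00394) passed on p but not on size. *Jrk* (0.02) and *Lypd2* (0.34), in the same stretch, were not lower. The part of this position in the value of *Arc* was not tested.

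The AP-1 genes, whose products pair as FOS and JUN dimers on DNA, gave no call at P22. *Fosb*, whose stable splice form accumulates with repeated activity, was at 0.721, 0.679 and 0.558 CPM in Het and 0.442, 0.432 and 0.305 CPM in Homo pools. The groups did not overlap, but these levels rest on 12 to 26 counts per library and the log2 fold change of -0.72 had an SE of 0.355 (edgeR adjusted p = 0.21). *Fos*, the classic activity marker, was at 4.19, 5.97 and 3.4 CPM in Het and 3.43, 4.29 and 4.6 CPM in Homo pools. The Homo pools lay within the range of the Het pools, and the log2 fold change was -0.13 (SE 0.216, edgeR adjusted p = 0.729). *Junb*, the most abundant of the 3 per length at both ages, was at 14.9 ± 1.54 CPM in Het and 14.5 ± 1.18 CPM in Homo pools (SD, n = 3), a log2 fold change of -0.04 (SE 0.106).

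The NR4A genes encode nuclear receptors that act without a known ligand. *Nr4a1* was at 29.2, 25.9 and 20.6 CPM in Het and 19.2, 17.4 and 23.5 CPM in Homo pools at P22. The third Homo pool was above the third Het pool, and the log2 fold change of -0.33 (SE 0.138) had an edgeR adjusted p of 0.141. *Nr4a3* was at 1.61, 0.905 and 1.36 CPM in Het and 0.711, 1.08 and 1.07 CPM in Homo pools. Its groups overlapped and its log2 fold change was -0.43 (SE 0.313, edgeR adjusted p = 0.394).

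The EGR genes, which encode zinc finger factors, gave no call at P22. *Egr1* was at 12.8, 12.2 and 10.9 CPM in Het and 14.5, 10.2 and 11.2 CPM in Homo pools, with a log2 fold change of 0.00 (SE 0.137). *Egr3* was at 1.94, 1.95 and 2.29 CPM in Het and 2.55, 2.38 and 2.18 CPM in Homo pools, with a log2 fold change of 0.2 (SE 0.198, edgeR adjusted p = 0.537). *Egr4* had 1, 2 and 0 counts in the Het pools and 0 in each Homo pool, where 0 of all counts allows up to 0.0246 CPM (3 counts over the group, counting error only). Over the 8 members tested at P22, the groups failed to overlap in 2, *Arc* and *Fosb*, against 33.6% of all genes tested.

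*Npas4*, a factor that answers to calcium entry in neurons and to little else, was nearly silent and gave opposite values at the 2 ages. At P22 it had 10, 9 and 11 counts in the Het pools and 3, 4 and 2 in the Homo pools. All Homo pools were below all Het pools, and the ratio of the summed rates, Homo over Het, was 0.269 (95% exact conditional interval 0.112 to 0.58, for counting error only). In the P7 counts it had 4, 0 and 4 counts in the Het pools and 9, 7 and 19 in the Homo pools. Here all Homo pools were above all Het pools, with a ratio of 5.26 (2.4 to 13.1). In the rounded TPM libraries it was listed at 0 in every pool, but its mean of 0.175 TPM, as estimated from the P7 counts, also rounds to 0.

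An exact 2-sided permutation test over pools gave p = 0.1 for *Npas4* in each of these comparisons, the smallest that 3 against 3 pools allow. With no filter on low counts, edgeR gave log2 fold changes of -1.85 at P22 (SE 0.71, adjusted p = 0.119) and 2.21 in the P7 counts (SE 0.883, adjusted p = 0.872). In the fit over all 12 libraries, the difference between its genotype effects at P22 and P7 was -4.08 on the log2 scale (SE 0.977). The adjusted p was 0.22 in edgeR and 0.0395 in the Wald test of DESeq2, which called 173 of 19669 genes. *Npas4* passed the filter on low counts in this fit but not in the fit of either age with all its pools. Its highest counts were in the P22 Het and P7 Homo pools. These groups set the difference, so its p-values are descriptions. Of 9 members in this fit edgeR called 0, against 0.0306% of 16314 genes, while 3 members had an unadjusted p under 0.05, against 10.2% of all genes. Beside *Npas4* these were *Fosb*, with a difference of -0.96 (edgeR adjusted p = 0.417), and *Arc*, with -0.52 (edgeR adjusted p = 0.45).

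Markers of brain neurons were summed beside *Npas4*. The sum of 12 such markers was 221 to 241 CPM in Het and 264 to 286 CPM in Homo pools of the P7 counts, none was at 0 in every library, and *Gabra6* stayed under 10 counts. Homo pool 7, with the most *Npas4* counts, had the lowest sum of the Homo pools. Of 11 markers tested 0 were called in either direction, as were 0 of all 16026 genes tested. Their median log2 fold change was 0.774, the direction of *Npas4*, against 0.003 over all genes tested. In rounded TPM the sums were 92 to 123 in Het and 116 to 171 in Homo pools, which overlapped. *Neurod2*, a factor of forebrain and cerebellar neurons, was at 0.681, 0.819 and 0.31 CPM in the Het pools and at 1.64, 6.06 and 6.83 CPM in the Homo pools. Its log2 fold change was 2.99 (SE 0.596, edgeR adjusted p = 0.894). At P22 the sum of the list was 199 to 207 CPM in Het and 208 to 221 CPM in Homo pools, opposite in direction to *Npas4*, and *Neurod6*, *Tbr1* and *Pcp2* stayed under 10 counts. *Neurod2* itself was at 0.554, 0.594 and 0.399 CPM in Het and 0.368, 0.24 and 0.33 CPM in Homo pools at P22, the direction of *Npas4*. *En2* (log2 fold change 0.99, SE 0.342, edgeR adjusted p = 0.0852) and *Zic1* (0.48, SE 0.177, edgeR adjusted p = 0.104) went the other way. The median log2 fold change of the 8 markers tested at P22 was -0.169, against 0.013 over all genes tested, so sum and median differed in direction. The part of such cells in the values of *Npas4* was not tested.

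**Figure D1:**
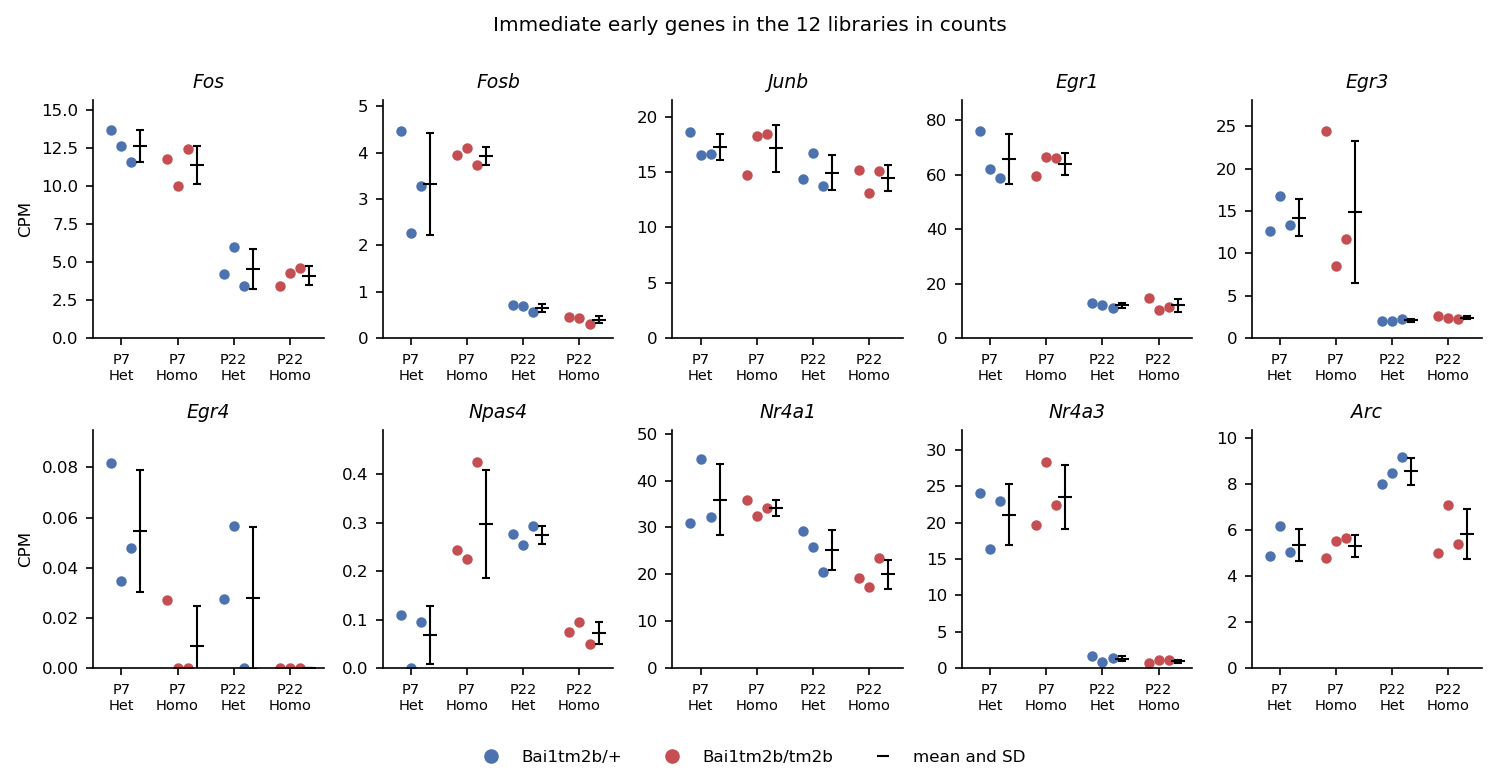
CPM of each of the 10 genes (y axis, from 0, a scale of its own in each panel) in the 12 libraries in counts, by age and genotype; each age was scaled within its own table. Points are pools, in order of replicate number, and bars give mean and SD (n = 3). *Arc* at P22 was at 5.0 to 7.08 CPM in Homo and 8.01 to 9.17 CPM in Het pools, and *Npas4* changed order between P7 and P22.

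In the P7 counts, no member was called. Of 8 members tested, edgeR called 0 and 0 had an unadjusted p under 0.05, against 0% called of the 16026 genes tested (4.76% at an unadjusted p under 0.05, and 48 called by DESeq2, 0 of them members). The groups overlapped in all 8, against 10.6% of all genes whose groups did not. *Arc* was at 5.36 ± 0.701 CPM in Het and 5.32 ± 0.478 CPM in Homo pools (SD, n = 3), a log2 fold change of -0.01 (SE 0.155). *Fos* was at 12.6 ± 1.08 and 11.4 ± 1.27 CPM, *Egr1* at 65.9 ± 9.13 and 64.0 ± 3.97 CPM. For these and for *Junb* and *Nr4a1* the log2 fold changes lay between -0.14 and 0.00.

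*Egr3* had the widest spread of the 8 members tested in the P7 counts, at 12.6, 16.7 and 13.3 CPM in the Het pools and 24.4, 8.46 and 11.7 CPM in the Homo pools. Homo pool 5 stood above all others and Homo pool 6 below all others. *Egr4* had 3, 2 and 2 counts in Het and 1, 0 and 0 in Homo pools, a ratio of 0.172 (95% exact conditional interval 0.00381 to 1.34).

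In the P7 pools deposited as rounded TPM, the 2 genes that stood apart were *Egr3* and *Nr4a1*, both with higher values in mutant mice. *Egr3* was at 7, 7, 5 and 6 TPM in Het and 9, 11, 8 and 9 TPM in Homo pools. The groups did not overlap, and the log2 fold change on log2(TPM + 1) was 0.4 (SE 0.11), with a limma adjusted p of 0.0503. *Nr4a1* was at 27, 29, 20 and 26 TPM in Het and 30, 38, 33 and 37 TPM in Homo pools. Again no Homo pool fell among the Het pools, with a log2 fold change of 0.32 (SE 0.1, limma adjusted p = 0.0635).

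Neither gene passed the threshold in limma, and in the P7 counts *Egr3* was at 0.07 (SE 0.364) and *Nr4a1* at -0.07 (SE 0.145) on the log2 scale. *Junb* had a log2 fold change of -0.2 (SE 0.0841, limma adjusted p = 0.119), while *Fos* (0.08) and *Egr1* (0.08) lay closer to 0. Of 6 members with a mean of at least 5 TPM, limma called 0 in either direction, against 0.656% of 11740 genes called higher and 0.153% called lower, and 3 had an unadjusted p under 0.05, against 34.5% of all genes. The groups did not overlap in 2 of the 6, against 14.8% of all genes. Without TMM scaling *Egr3* was called (0.5, limma adjusted p = 0.0388), but that setting also put the median gene at 0.118 and called 293 of 11740 genes. *Arc* was at 4, 3, 3 and 2 TPM in Het and 2, 3, 3 and 2 TPM in Homo pools, with p = 0.657 in an exact 2-sided permutation test (smallest possible 0.0286). *Fosb* was at 1 TPM in every pool but the third Homo pool, which was at 2 TPM (exact 2-sided permutation p = 1.0).

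In these pools the neuron markers were at 2160 to 3430 TPM in Het and 2780 to 3750 TPM in Homo pools, and 1 of 13 tested, *Syt2* (0.66), was called higher. Their part in the values of *Egr3* and *Nr4a1* was not tested.

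**Figure D2:**
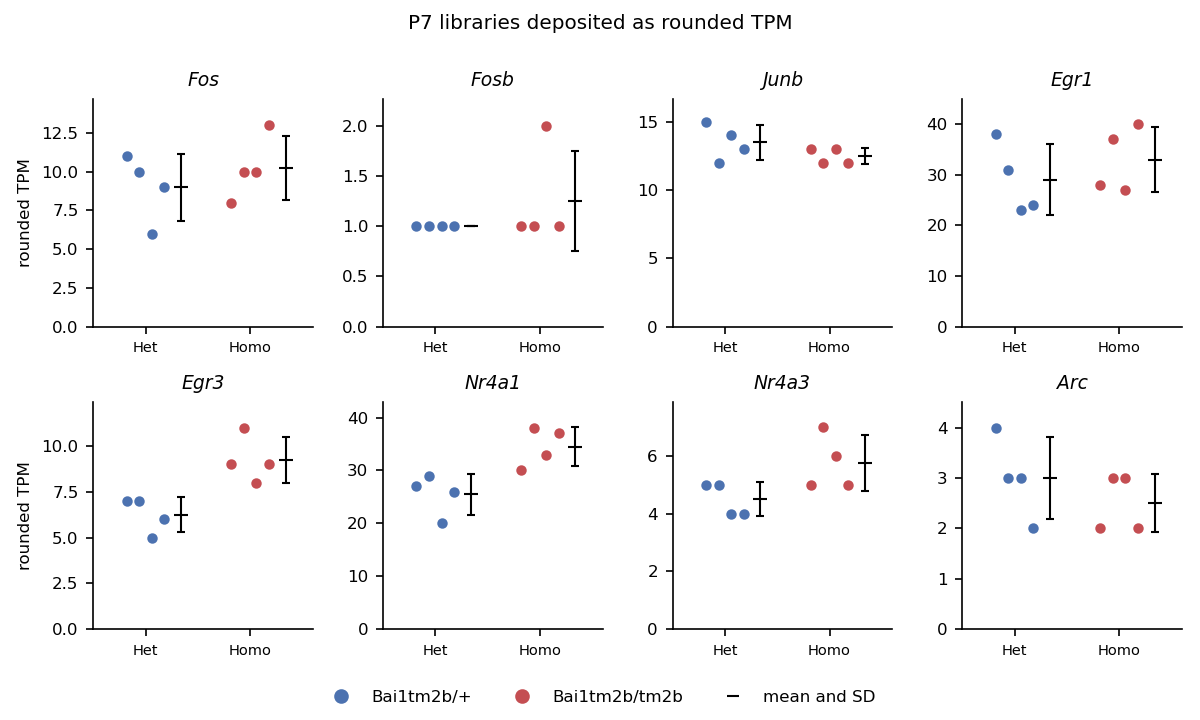
Rounded TPM as deposited (y axis, from 0, a scale of its own in each panel) for 8 of the 10 genes in the 4 P7 pools of each genotype; *Egr4* and *Npas4*, at 0 in every pool, are left out. Points are pools in order of replicate number and bars give mean and SD; *Egr3* (5 to 7 against 8 to 11 TPM) and *Nr4a1* (20 to 29 against 30 to 38 TPM) did not overlap between genotypes.

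**Figure D3:**
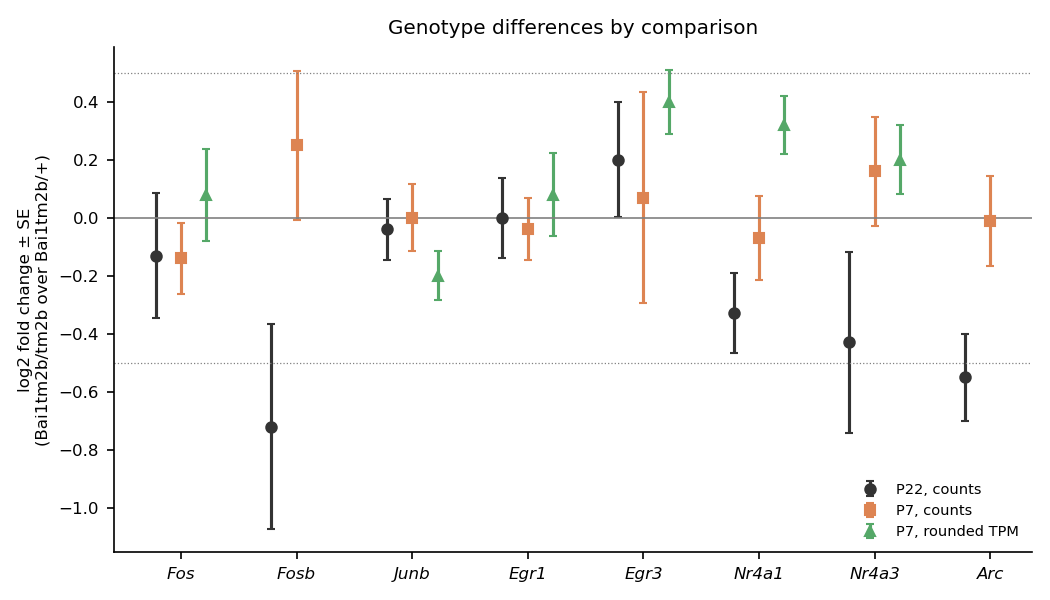
Log2 fold change of Homo over Het with its SE (y axis) for the 8 genes tested in at least 1 comparison, at P22 (circles), in the P7 counts (squares) and in the P7 rounded TPM (triangles). Dotted lines mark the limit of 0.5 in either direction; *Arc* at P22 (-0.55) was the 1 value called, and *Fosb* at P22 (-0.72) lay lower with an SE of 0.355.

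Between P7 and P22 the set split. In the libraries in counts, *Nr4a3*, *Fosb*, *Egr3*, *Egr1* and *Fos* were lower at P22 by over 1 on the log2 scale. The others with a value were not. *Nr4a3* was at 15.0 to 25.7 CPM in the 6 P7 pools and 0.786 to 1.78 CPM in the 6 P22 pools when all 12 libraries in counts were scaled together, a log2 difference of -4.03 (SE 0.174), or 16.4-fold lower. Of all genes in the fit, 1.31% had a lower log2 difference. *Fosb* was at 2.09 to 4.05 CPM at P7 and 0.335 to 0.797 CPM at P22 (log2 difference -2.54, SE 0.195). *Egr3* was at 7.68 to 21.2 and 2.15 to 2.82 CPM (-2.42, SE 0.22). *Egr1* was at 51.8 to 69.2 and 11.3 to 16.0 CPM (-2.15, SE 0.0964). *Fos* was at 9.05 to 12.5 and 3.76 to 6.62 CPM (-1.19, SE 0.133). In each of these 5 genes every P22 pool was below every P7 pool in counts, in both genotypes. The share of all genes that separate in this way was not counted.

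*Junb*, whose product pairs with FOS proteins, was near its P7 level, at 12.8 to 16.8 CPM at P7 and 14.5 to 18.5 CPM at P22 (0.06, SE 0.0836). *Nr4a1*, the closest relative of *Nr4a3* here, was at 28.1 to 41.3 and 19.2 to 32.3 CPM (-0.35, SE 0.114). *Arc* went the other way, from 4.15 to 5.69 CPM at P7 to 5.53 to 10.1 CPM at P22 (0.69, SE 0.112). The Het pools held most of that difference, with *Arc* at 4.91 ± 0.68 CPM at P7 and 9.47 ± 0.633 CPM at P22, against 4.77 ± 0.54 and 6.43 ± 1.22 CPM in Homo pools (SD, n = 3). *Npas4* was at 0 to 0.386 CPM at P7 and 0.0558 to 0.323 CPM at P22 (0.34, SE 0.502).

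Of 9 members with a value, 5 were lower by over 1 on the log2 scale, against 18.3% of 16314 genes, and 0 were higher by as much, against 14.3%. The other P7 batch, in rounded TPM, gave smaller differences for these 5 genes when levels were compared per length, an alternative chosen after seeing the data. *Nr4a3* averaged 5.12 ± 0.991 rounded TPM (SD, n = 8 pools) against 14.7 estimated TPM in the P7 counts and 0.708 at P22, so that P7 was 7.24-fold above P22 by the first and 20.7-fold by the second. *Egr1* was 3.08-fold and 5.67-fold above, *Egr3* 4.08-fold and 6.89-fold, *Fosb* 3.56-fold and 7.29-fold, and *Fos*, at 9.62 ± 2.07 rounded TPM, 1.39-fold and 2.91-fold. *Junb* was 0.539 and 1.22 times its P22 level, which puts it on opposite sides. With rounded TPM 4 of 8 members were lower by over 1 at P22, and with the P7 counts 5. *Arc* was higher at P22 by 1.69 on the log2 scale with rounded TPM and by 0.37 with the P7 counts. These tables were normalized separately. Each age is a table of its own, so age, table and sequencing batch cannot be told apart, and these differences are given without a test. The makeup of the tissue moved too: 13 of the 14 neuron markers were higher by over 1 at P22, with a median log2 difference of 2.57, and heat shock genes had a median of 1.25 and 0 of 10 lower by over 1. The part of either in the lower levels of the 5 genes was not tested.

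Per unit of length, the order of the genes changed with age in the libraries in counts. At P7, estimated TPM (counts over the exon length in the GENCODE annotation) ran from *Egr1* at 57.1 ± 5.6 (SD, n = 6 pools) through *Nr4a1* at 39.3 ± 5.27, *Junb* at 29.4 ± 2.32, *Fos* at 20.1 ± 2.13, *Nr4a3* at 14.7 ± 2.7, *Egr3* at 13.1 ± 5.38, *Arc* at 6.88 ± 0.543 and *Fosb* at 2.3 ± 0.527 to *Npas4* at 0.175 ± 0.142 and *Egr4* at 0.0585 ± 0.0568. *Nr4a3* and *Egr3*, and *Npas4* and *Egr4*, were neighbors whose spreads overlapped. At P22, *Nr4a1* at 24.3 ± 4.58 and *Junb* at 24.1 ± 1.76 led and did not differ beyond their spread. *Egr1* at 10.1 ± 1.19, *Arc* at 8.89 ± 2.06 and *Fos* at 6.93 ± 1.48 followed, each within the spread of its neighbor. *Egr3* at 1.9 ± 0.218, *Nr4a3* at 0.708 ± 0.202 and *Fosb* at 0.316 ± 0.0938 came next, each apart from its neighbor. *Npas4* at 0.158 ± 0.101 overlapped with *Fosb* and with *Egr4* at 0.0244 ± 0.0409. *Nr4a3* and *Egr3* were thus within their spread at P7 and apart at P22. In the P7 pools in rounded TPM, *Egr1* at 31.0 ± 6.59 and *Nr4a1* at 30.0 ± 5.95 (SD, n = 8 pools) did not differ beyond their spread. The lead of *Egr1* at P7 was thus seen only in the counts.

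The other immediate early transcription factors were mixed. Of 17 with a value, 2 were lower and 4 higher by over 1 at P22, with a median log2 difference of 0.377. *Nr4a2*, the third NR4A gene, was at 0.17 (SE 0.111), *Myc* at -0.87 (SE 0.0784) and *Atf3*, a stress-induced factor, at 1.97 (SE 0.098). Of 19 immediate early signaling genes, 4 were lower and 1 higher, with a median of 0.168. Of 14 late response genes, which the early factors switch on, 6 were lower and 2 higher (median -0.719), among them the secretogranin gene *Scg2* at -4.41 (SE 0.228). Of 23 upstream regulators, the kinases and factors that switch the set on, 3 were lower and 1 higher (median 0.067).

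**Figure D4:**
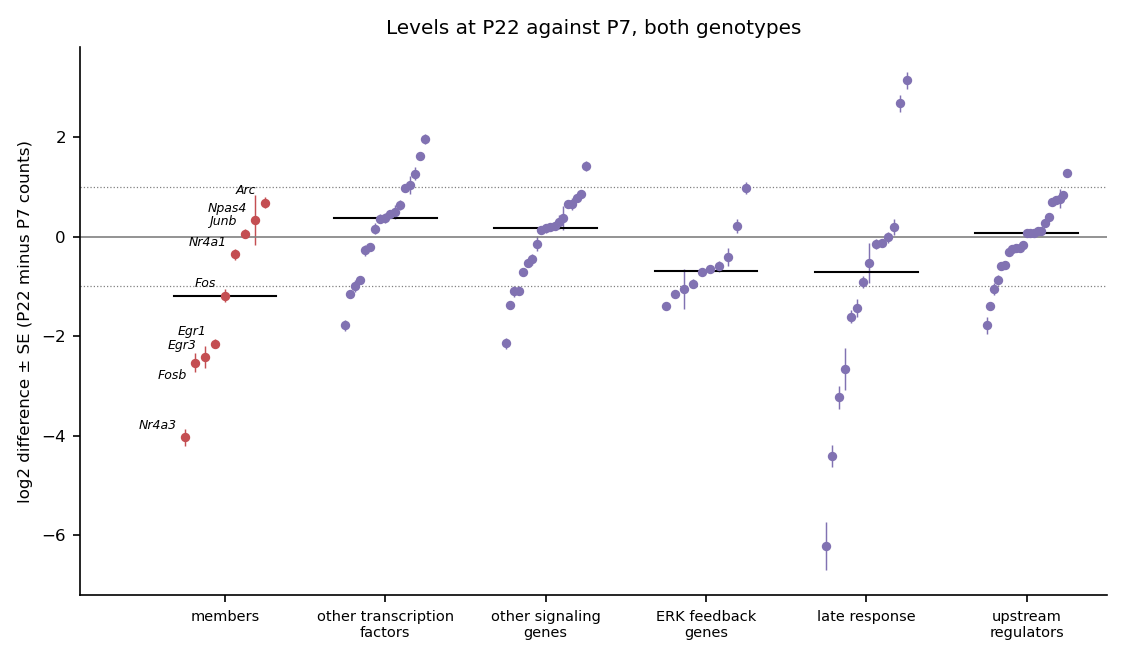
Log2 difference of P22 minus P7 with its SE (y axis), averaged over genotypes in the 12 libraries in counts, for 9 of the 10 genes (red) and for 5 lists of related genes (purple). Black lines are medians and dotted lines mark 1 in either direction; *Nr4a3* (-4.03) was the lowest of the named genes and *Arc* (0.69) the highest.

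In the feedback arm of the same pathway, *Dusp5* and *Dusp1* were lower in mutant mice at P22. Among 10 genes that damp ERK signaling, 2 were called lower at P22, against 1.41% of all genes tested. *Dusp5*, a nuclear ERK phosphatase, was at 3.74 ± 0.0717 CPM in Het and 2.05 ± 0.338 CPM in Homo pools (SD, n = 3), a log2 fold change of -0.86 (SE 0.189, edgeR adjusted p = 0.0167). *Dusp1*, a phosphatase of stress kinases that is itself an immediate early gene, was at 28.6 to 44.3 CPM in Het and 18.9 to 26.2 CPM in Homo pools (-0.61, SE 0.157, edgeR adjusted p = 0.0312). Its groups did not overlap, as was so for 33.6% of all genes tested. The median over the 10 genes was -0.085, against 0.013 over all genes tested. In the P7 counts *Dusp5* was at -0.2 and *Dusp1* at -0.15, and in rounded TPM at -0.15 and -0.11, none of them called.

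Elsewhere in the pathway edgeR and DESeq2 each called 0 of 72 genes at P22. Over all genes, edgeR called 487 of 15443 and DESeq2 508 of 18650. Of the 72, 16 had an unadjusted p under 0.05 in edgeR, against 28.7% of all genes tested. The 72 comprised 17 other early transcription factors (median 0.021), 19 early signaling genes (median 0.072), 13 late response genes (median -0.117) and 23 upstream regulators (median -0.024). The values nearest to a call were those of *Rps6ka3*, the kinase RSK2 that phosphorylates CREB (-0.43, SE 0.0933, edgeR adjusted p = 0.0164), *Atf3* (0.37, SE 0.108, edgeR adjusted p = 0.049) and *Rasgrp1*, a Ras activator (0.34, SE 0.0875, edgeR adjusted p = 0.0315), which passed on p but not on size. The largest in the other lists were *Nr4a2* (-0.33), *Myc* (0.33), *Ptgs2* (0.31), *Ier3* (0.27), *Cyr61* (0.26), *Scg2* (-0.41), *Vgf* (-0.39), *Camk2a* (0.43), *Mef2d* (-0.27) and *Dusp4* (-0.37).

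Heat shock genes, which answer to stress, were also lower as a sum at P22. It was 5140 to 5620 CPM in Het and 4210 to 4940 CPM in Homo pools, and *Hspa1a* was called lower (-0.79, SE 0.212, edgeR adjusted p = 0.0369), from 47.6 ± 16.8 to 27.6 ± 5.18 CPM (SD, n = 3). *Hspa1b* (-0.86, edgeR adjusted p = 0.0584) and *Dnajb1* (-0.4, edgeR adjusted p = 0.0471) had values in the same direction. The part of handling in the values of *Arc*, *Dusp1* and *Dusp5* was not tested.

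Markers of other cell types were summed for each pool. Those of central glia (10 genes, none at 0) were at 765 to 882 CPM in Het and 1040 to 1580 CPM in Homo pools at P22, with 7 of 10 called higher. Over all genes tested, edgeR called 269 of 15443 higher. Hair cell markers were at 1080 to 1140 and 1120 to 1210 CPM, with *Otof*, *Ocm* and *Chrna10* called higher. Schwann cell (18800 to 19900 and 19700 to 23000 CPM), endothelial (291 to 349 and 272 to 332 CPM) and macrophage markers (134 to 161 and 161 to 207 CPM) had 1, 0 and 0 genes called. Neutrophil markers were at 6.62 to 16.8 CPM in Het and 7.39 to 59.0 CPM in Homo pools, and *Mmp8* was called higher (2.74, edgeR adjusted p = 0.00553). Erythroid markers were at 1280 to 2360 and 1560 to 2390 CPM, and *Slc4a1* was called higher (1.6, edgeR adjusted p = 0.0477).

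The spread between pools was described within groups, and the part of dissection in it was not tested. Each pool's log2 deviation from its group mean, averaged over the 8 members tested, stayed between -0.0926 and 0.0811 in the 12 libraries in counts. No pool was the highest in its group for all 8 members. Het pool 5 at P7 was highest in 5 members and lowest in 3. Het pool 3 at P22 was lowest in 5 and highest in 2. Across the 12 libraries, the deviations of 2 members had a median Pearson r of -0.06 over 28 pairs, of which 13 were positive, 2 above 0.5 and 3 below -0.5. The highest were *Junb* with *Egr1* (0.66) and *Fosb* with *Egr1* (0.52), and the lowest *Junb* with *Egr3* (-0.7), *Egr1* with *Arc* (-0.57) and *Fosb* with *Nr4a1* (-0.53). The libraries share a scaling and a group mean, so the r values are descriptions.

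In the rounded TPM libraries, Het pool 3 was lowest in 5 of 6 members and stood at a mean deviation of -0.203. Het pool 1 stood at 0.137 and was lowest in 0 of 6. The mean deviations of the other 6 pools lay between -0.11 and 0.114.

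Spread between pools was large for some members and small for others. In the P7 counts, *Egr3* had a coefficient of variation between pools (edgeR's tagwise estimate) of 0.315, against a median of 0.122 over the 500 genes nearest to it in mean count, 99.0% of which were below it. *Nr4a3* (0.172 against 0.108) and *Nr4a1* (0.137 against 0.0973) were also above like genes, and *Arc* (0.154 against 0.182) and *Fos* (0.124 against 0.132) below. At P22, *Nr4a1* (0.125 against 0.0838) and *Fos* (0.189 against 0.152) were the furthest above, while *Egr3* (0.157 against 0.191) and *Fosb* (0.215 against 0.278) were below and *Arc* (0.136 against 0.128) was close to like genes.

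The 5 genes whose deviations followed the mean of the members most closely over the 12 libraries, of 14418 genes compared, were *4930579G24Rik* (r = 0.917), *Fcgr3* (0.902), *5730408K05Rik* (0.865), *Col13a1* (0.864) and *Acot11* (0.861). They were picked as the highest of 14418 r values over few libraries, so these r values are descriptions, not tests of shared regulation. The mean they followed moved only between -0.0926 and 0.0811, and the members did not move together.

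**Figure D5:**
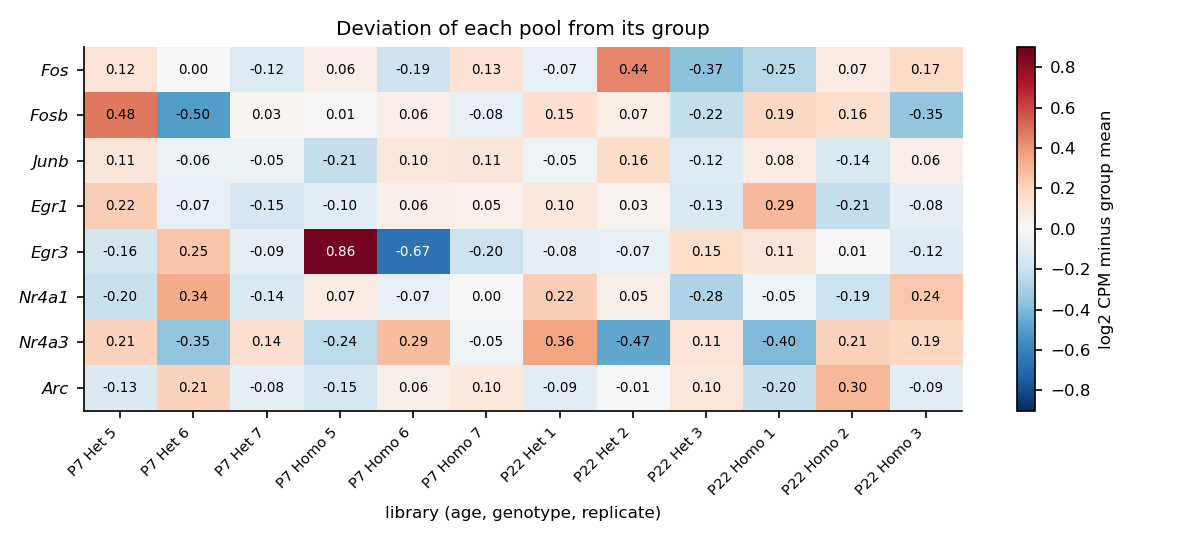
Log2 CPM of each pool minus the mean of its group (color and printed value) for the 8 genes tested, with the 12 libraries in counts as columns and genes as rows. Homo pools 5 (0.86) and 6 (-0.67) at P7 stand out for *Egr3* alone, and no column is of 1 color from top to bottom.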

How the data were processed

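The authors made poly A libraries from pools of 4 mice, sequenced them as paired-end reads, ran the nf-core RNA pipeline against mm10 and took gene counts from Salmon. Their processing notes also name STAR and DESeq2. Versions, annotation release and strand setting are not given in the sources used here. The deposited P22 values and P7 replicates 5 to 7 are estimated counts, without normalization. The deposited values of P7 replicates 1 to 4 are a score, TPM rounded to whole numbers, which matches the pair of P7 batches of 4 and 3 pools that the methods describe. No column was left unused (0), and 2 gene names occur more than once.

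Counts were rounded, filtered with filterByExpr and scaled by TMM, and genotypes were compared within each table by the quasi-likelihood test of edgeR 4.0.16 in R 4.3.3, with DESeq2 1.42.0 as an alternative. Rounded TPM was scaled by TMM and compared with limma 3.58.1 on log2 values after 1 was added as pseudocount, where a gene averaged 5 TPM or more. P-values were adjusted over all genes by the Benjamini-Hochberg method. Alternatives covered the tool, filter, scaling, thresholds, a replicate block and each pool left out. The steps were tested on simulated data. Differences between P7 and P22 come from 1 edgeR fit of the 12 libraries in counts, averaged over genotypes. Fold changes of rounded TPM understate low genes. Exon lengths from GENCODE vM21 were found for 23350 of the 24411 genes (95.7%). *Junb* shares 7.5% of its exon bases with *Prdx2* on the opposite strand, and the other members share 0.

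The 10 members and all lists were chosen with earlier results of these data known. Genes named beside the members and *Adgrb1* were those called in a list, up to 3 of largest change in each list at P22, and the 5 whose deviations followed the members. *Mafa*, *Them6*, *Lynx1*, *Jrk*, *Lypd2*, *Tubb3*, *Gabra6*, *Neurod6*, *Tbr1*, *Pcp2* and *Prdx2* were named outside this rule, after their values were seen.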

Additional observations from a re-analysis of the deposited data

Results flagged for a closer look

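*Npas4* went in opposite directions between genotypes at the 2 ages in the 12 libraries in counts. It was listed at 0 in all 8 pools in rounded TPM, where a level such as its mean of 0.175 estimated TPM in the P7 counts rounds to 0. At P22 its mean was 0.275 CPM in Het and 0.0734 CPM in Homo pools (n = 3 pools each), and in the P7 counts 0.0681 CPM in Het and 0.297 CPM in Homo pools. The difference between both effects had an adjusted p of 0.22 in edgeR and 0.0395 in DESeq2, which called 173 of 19669 genes. These p-values are descriptions, since the gene passed the filter only with both ages in 1 fit. Leaving out 1 pool at a time moved the difference between -4.58 and -3.38 on the log2 scale. The brain neuron marker sum was higher in every Homo pool than in any Het pool in the P7 counts, while in rounded TPM the genotypes overlapped (92 to 123 and 116 to 171).

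*Fosb* in the third P7 Homo pool, at 2 rounded TPM against 1 in the other three, lay far from its group. Chance flags about 1 in 20 such groups, and 15 were examined. A step of 1 is the smallest a whole number can take.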

How the results depend on the processing

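The call of *Arc* at P22 was kept with DESeq2, no filter, median-of-ratios factors, a replicate block and an adjusted p under 0.05 alone. No member (0) was called with neuron marker scaling or at an adjusted p under 0.01. With 1 pool left out, 0 to 1 members were called. TPM without TMM scaling called 1 member, *Egr3*, and 293 of all 11740 genes. For the difference of genotype effects between ages, DESeq2 called 1 member, *Npas4*, and 173 of all 19669 genes, where edgeR called 5 of 16314. Neuron marker scaling moved the median gene to 0.267 at P22 and 0.285 in the P7 counts, and gave log2 fold changes of 0.11 for *Fos* and 0.2 for *Junb* at P22, and of 0.13 for *Fos*, 0.24 for *Junb*, 0.2 for *Egr1*, 0.28 for *Nr4a1* and 0.3 for *Arc* at P7, opposite in sign to the values given above. DESeq2 put the difference between effects of *Fos* at -0.01. The cause was not tested.

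Replicate numbers did not pair the samples. Deviations of samples with the same number correlated by -0.19 to 0.08, and 2 of 6, 1 of 6 and 0 of 8 libraries correlated best with their own number at P22, in P7 counts and in rounded TPM. With the replicate block, *Arc* at P22 was at -0.56 (edgeR adjusted p = 0.0452), and 1 member was called at P22 and 0 in either P7 set. *Egr1* at P22 was at -0.01 and *Egr3* in the P7 counts at -0.06. Over all genes the block gave 466 calls in place of 487 at P22 and 0 in place of 95 in rounded TPM.

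With 1 pool left out, signs changed at P22 for *Fos* (-0.3 to 0.12), *Junb* (-0.1 to 0.04) and *Egr1* (-0.15 to 0.11). They changed in the P7 counts for *Junb* (-0.06 to 0.1), *Egr1* (-0.11 to 0.09), *Egr3* (-0.49 to 0.35), *Nr4a1* (-0.16 to 0.12) and *Arc* (-0.07 to 0.1). In rounded TPM they changed for *Fos* (-0.07 to 0.17) and *Egr1* (-0.01 to 0.19). The difference between effects changed sign for *Fos* (-0.15 to 0.28), *Junb* (-0.14 to 0.06), *Egr1* (-0.11 to 0.17) and *Egr3* (-0.11 to 0.69). None of these values was called. Per length, with P7 taken from the rounded TPM, the log2 differences of P22 minus P7 lay between -2.86 (*Nr4a3*) and 1.69 (*Arc*), and between -4.37 and 0.37 with P7 taken from the counts, both chosen after seeing the data. Depth limits *Npas4*, *Egr4* and *Fosb*, and rounding limits *Npas4*, *Egr4*, *Fosb* and *Arc* in TPM.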
